A study of Mus musculus with 6 samples.

Results

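Small nucleolar RNAs are short nuclear RNAs that act inside protein particles on other RNAs, above all on ribosomal RNA. Those of the C/D box class, with mouse symbols that start with Snord, mostly guide the addition of methyl groups to the ribose of ribosomal RNA. Those of the H/ACA box class, with symbols that start with Snora, mostly guide the conversion of uridine to pseudouridine, and a few of either class take part in cutting the ribosomal RNA precursor. Most of these RNAs in mammals are released from introns of longer transcripts, called host genes. T cells enlarge their nucleoli and make more ribosomes when an antigen activates them, so these genes belong to a process known from activated T cells.

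The genes described here are those with a symbol of Snora or Snord followed by a digit. The array annotation held 69 such symbols, and 51 of them, 20 Snora and 31 Snord, had a probe set that named no other gene. They were 51 of the 19938 genes with such a probe set. Of the 51 genes, 46 had 1 probe set and 5 had 2, of which the one with the highest mean was used. The remaining 18 symbols shared all 41 of their probe sets with other symbols and entered no comparison below.

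The levels came from Affymetrix arrays of CD4 T cells that carry the BDC2.5 receptor, a T cell receptor specific for an islet antigen, and that had been transferred into NOD mice, a strain that develops autoimmune diabetes. The recipients were female, and 7 weeks was the age given. 3 groups of 2 arrays were compared: mice given 100 ng of anti-DCIR2-BDC, mice given 100 ng of anti-DEC205-BDC, and mice given PBS. Both agents are antibodies that carry the BDC antigen to a receptor of dendritic cells, DCIR2 or DEC205, which different subsets of these cells bear. At 14 h, Thy1.1+CD4+ cells from the spleen were sorted after a magnetic depletion step. All groups, PBS included, held transferred BDC2.5 cells. No group received an antibody without antigen, so what the antigen did and what its carrier antibody did cannot be told apart. The arrays of a group are called biological duplicates in the labels, without the number of mice behind an array, and the p-values below measure the spread between these samples, which may be partly technical. Levels below are log2 values after RMA, a standard normalization of such arrays, so that a difference of 1 is 2-fold. In sorted cell RNA, fewer cells that hold a transcript and less of it per cell cannot be told apart.

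A property of these genes sets how the values can be read. RefSeq places 50 of the 51 inside the span of another gene, 40 host genes in all, and the small RNA genes themselves are 45 to 205 bases long, with a median of 125 for Snora and 68 for Snord. The amplification copied the whole transcriptome from 5 ng of total RNA. A probe set over such a gene may therefore read the mature small RNA, the unspliced host transcript or both, and these cannot be told apart here. Many vertebrate host genes start at a run of pyrimidines, as the genes of the translation machinery do. The starts of 5 host genes follow, chosen among the hosts whose small RNAs changed past the threshold. Each is 60 bases of GRCm38.p6 from RefSeq, 30 on either side of the annotated start, on the gene's own strand. Capitals mark a run of at least 6 C or T, beginning with C, within the 10 bases on either side of the start. Bases farther out were not counted, so a run that reached past this stretch was cut there.
Snhg3, noncoding host of Snora73a and Snora73b, chr4:132353657-132353716, minus strand: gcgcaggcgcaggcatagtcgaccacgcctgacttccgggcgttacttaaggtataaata
1110038B12Rik, noncoding host of Snord52, chr17:34952442-34952501, minus strand: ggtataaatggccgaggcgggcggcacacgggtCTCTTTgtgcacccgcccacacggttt
2410006H16Rik, noncoding host of Snord49a and Snord49b, chr11:62602847-62602906, plus strand: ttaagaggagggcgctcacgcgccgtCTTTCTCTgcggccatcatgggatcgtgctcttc
Rack1, coding host of Snord95 and Snord96a, chr11:48800330-48800389, plus strand: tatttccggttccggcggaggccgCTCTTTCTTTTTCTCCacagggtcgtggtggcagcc
Rbmx, coding host of Snord61, chrX:57393007-57393066, minus strand: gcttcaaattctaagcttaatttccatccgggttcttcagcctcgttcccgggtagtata

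The run was present in 3 of these starts and absent from those of Snhg3 and Rbmx, a count that depends on which starts were printed. By this rule the starts of Tcp1 and Rps12, hosts of the strongly raised Snora20 and Snora33, also had none. In Rps12 a run of C and T did begin within 10 bases after the start, but most of it lay farther out and was not counted. Of the 30 host genes found in the promoter table, 10 (33.3%) had such a run, against 15.1% of the 27025 promoters in the table. The letters CACGTG, which read the same on both strands, occurred in 6 of the 30 (20.0%) between 250 bases before and 50 after the start, against 7.24% of all promoters. They were in none of the 60-base windows printed above, and a match describes letters only.

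The small nucleolar RNA genes were expressed at a wide range of levels. Their means over the 6 arrays ran between 4.38 and 10.60, with a median of 7.78, against 5.63 over all genes, and 45 of the 51 lay above that median. The highest were Snord14e, of the U14 family that in yeast is needed to cut the ribosomal RNA precursor, Snora3 and Snord104, at 10.60, 10.51 and 9.96. The lowest were Snord58b, Snord85 and Snora2b, at 4.74, 4.74 and 4.38. The plot of levels on the 6 arrays shows all 51 genes.

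**Figure D1:**
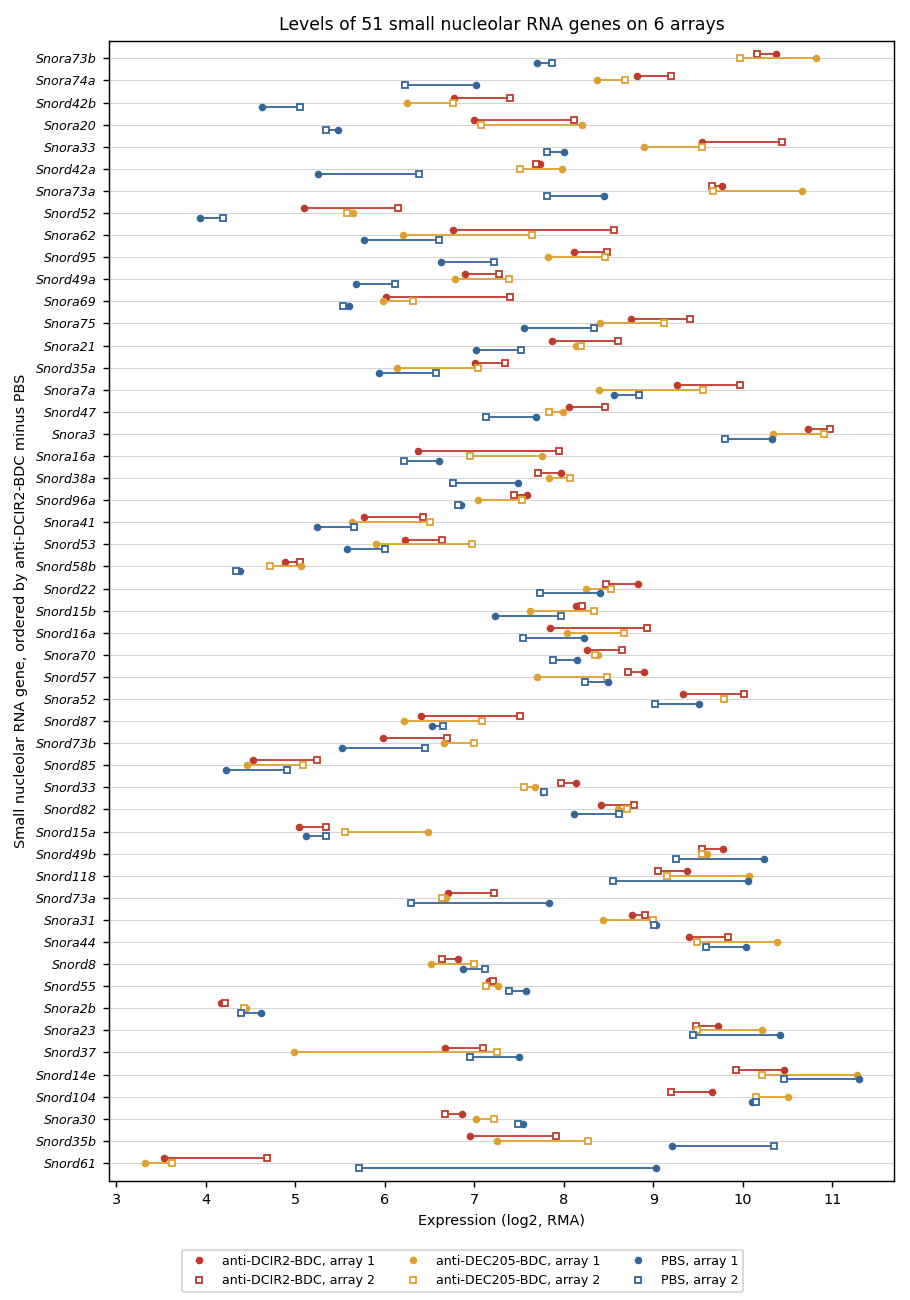
Log2 expression (horizontal axis) of each of the 51 small nucleolar RNA genes (rows, ordered by the change with anti-DCIR2-BDC against PBS). Circles are array 1 and squares array 2 of anti-DCIR2-BDC (red), anti-DEC205-BDC (yellow) and PBS (blue), joined by a line. In the top rows both antibody groups lie to the right of PBS, and in the bottom 2 rows, Snord35b and Snord61, to its left.

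The comparison of anti-DCIR2-BDC with PBS asks how these genes differed in T cells that had met antigen through DCIR2-bearing dendritic cells. Of the 51 genes, 17 rose and 4 fell at an adjusted p under 0.05 (limma, Benjamini-Hochberg over all 19938 genes). That is 41.2% of the members called, against 17.9% of all genes, with 33.3% higher against 10.1% and 7.84% lower against 7.82%. The median change was 0.57, and that of all genes -0.05. Among the H/ACA genes 9 of 20 rose and 1 fell, with a median of 0.85, and among the C/D genes 8 of 31 rose and 3 fell, with a median of 0.36. In 35 of the 51 the change was above 0, against 42.5% of all genes. Both anti-DCIR2-BDC arrays lay above both PBS arrays in 28 of the 51 and below them in 9, against 23.4% and 31.9% of all genes. Of the calls, 12 rises and 2 falls reached 2-fold.

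The comparison of anti-DEC205-BDC with PBS uses the same 2 PBS arrays, so the directions of the 2 comparisons are not independent. Here 10 genes rose and 2 fell, or 23.5% called against 8.84% of all genes, with 19.6% higher against 5.32% and 3.92% lower against 3.53%. The median change was 0.45, and that of all genes -0.03. The rises were 5 of 20 H/ACA genes and 5 of 31 C/D genes, all of at least 2-fold, and both falls were C/D genes. In 37 of the 51 the change was above 0, against 45.9% of all genes. The arrays lay wholly above PBS in 24 of the 51 and wholly below in 6, against 22.2% and 26.5% of all genes.

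Between the antibodies, 0 of 51 genes passed, against 0.0201% of all genes, all of those higher with anti-DCIR2-BDC. The median difference of the members was 0.07 (anti-DCIR2-BDC minus anti-DEC205-BDC), and it was above 0 in 30 of the 51, against 47.9% of all genes. Its sign rested on single arrays: it was -0.11 without array 2 of anti-DCIR2-BDC and 0.26 without array 2 of anti-DEC205-BDC. The anti-DCIR2-BDC arrays lay wholly above those of anti-DEC205-BDC in 7 of the 51 and wholly below in 4, against 19.3% and 20.9% of all genes. At an unadjusted p under 0.05 there were 6 of the 51, against 10.2% of all genes, with 4 higher (5.58% of all genes) and 2 lower (4.63%) with anti-DCIR2-BDC. A call in one comparison with PBS and not in the other therefore does not show a difference between the antibodies. With 2 arrays a group, the 95% interval of a change had a median half-width of 0.606 for the members, against 0.388 for all genes.

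**Figure D2:**
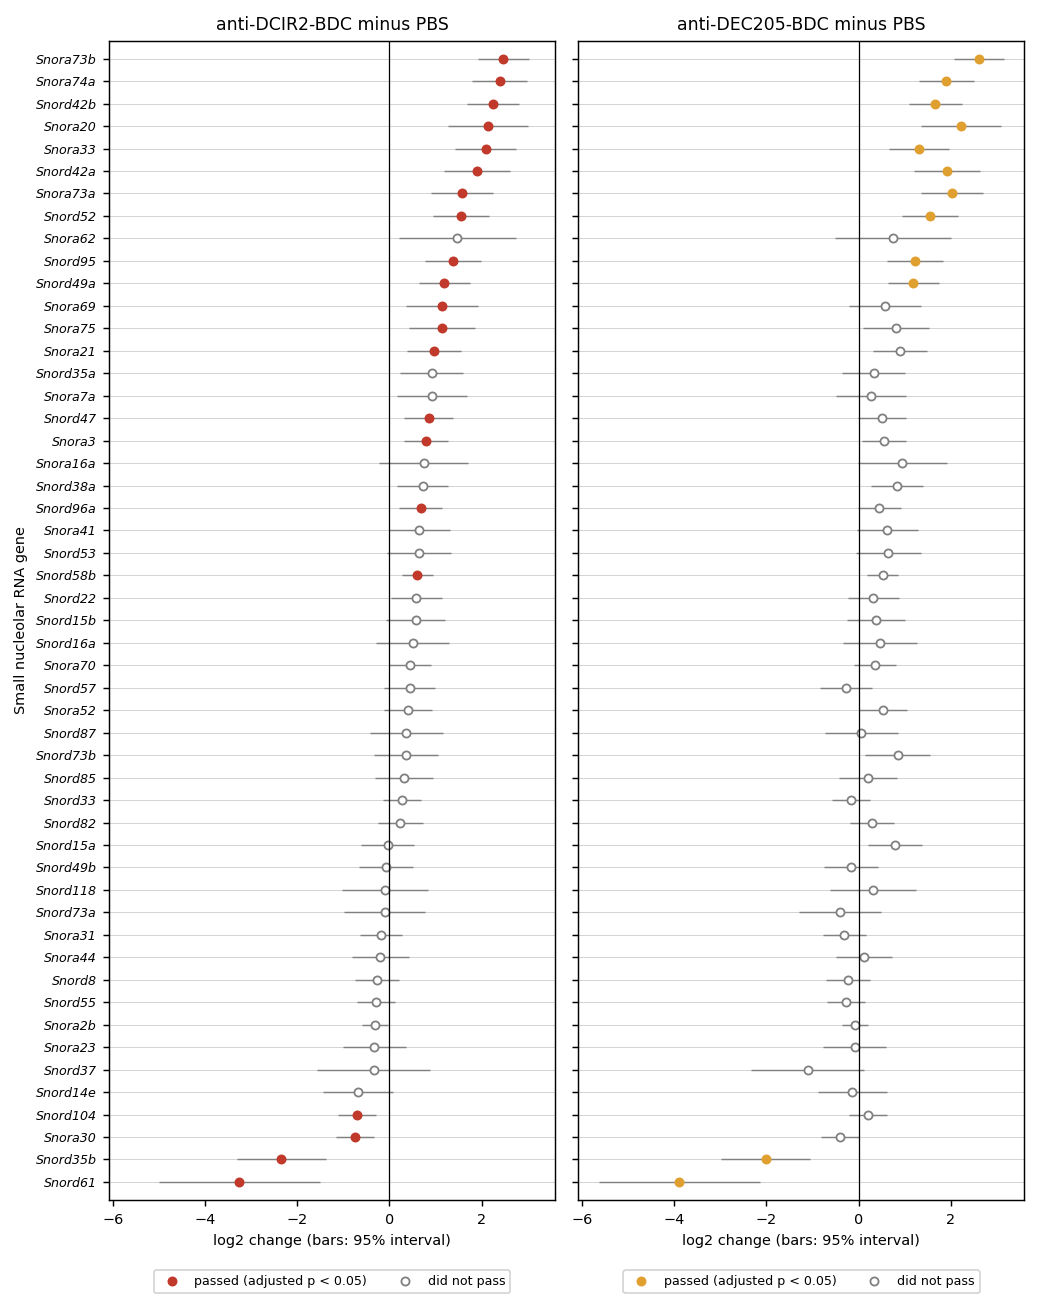
Log2 change against PBS (horizontal axis, bars are 95% intervals) of the 51 genes in the same order, with anti-DCIR2-BDC on the left and anti-DEC205-BDC on the right. Filled points passed at an adjusted p under 0.05: 17 higher and 4 lower on the left, 10 higher and 2 lower on the right.

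The largest rise in either comparison was that of Snora73b, one of the U17 RNAs, H/ACA RNAs known for a part in cutting the ribosomal RNA precursor. It had 10.37 and 10.15 on the anti-DCIR2-BDC arrays, 10.82 and 9.97 on the anti-DEC205-BDC arrays, and 7.70 and 7.87 on the PBS arrays. All 4 antibody arrays lay far above both PBS arrays. The change was 2.48 ± 0.25 (SE), or 5.57-fold, with anti-DCIR2-BDC (limma adjusted p = 0.00012) and 2.61 ± 0.25, or 6.11-fold, with anti-DEC205-BDC (adjusted p = 0.000532). Snora73a, the related copy in the same host gene, had 9.77 and 9.65 with anti-DCIR2-BDC, 10.66 and 9.67 with anti-DEC205-BDC, and 8.45 and 7.81 with PBS. It too was higher on every antibody array than on either PBS array, by 1.58 (adjusted p = 0.00435) with anti-DCIR2-BDC and by 2.04 (adjusted p = 0.00293) with anti-DEC205-BDC. Genes with such paired symbols encode related RNAs. Probe sequences were not used here, so how far a probe set reads both of a pair was not tested.

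Snora74a, the H/ACA RNA U19, had 8.82 and 9.19 with anti-DCIR2-BDC, 8.37 and 8.68 with anti-DEC205-BDC, and 7.01 and 6.22 with PBS. The lowest antibody array exceeded the highest PBS array by more than 2-fold. The change was 2.39 ± 0.27 (SE), 5.24-fold, with anti-DCIR2-BDC (limma adjusted p = 0.000213) and 1.91 ± 0.27, 3.75-fold, with anti-DEC205-BDC (adjusted p = 0.00239). Snora33, hosted by the ribosomal protein gene Rps12, had 9.55 and 10.44 with anti-DCIR2-BDC, 8.89 and 9.54 with anti-DEC205-BDC, and 8.0 and 7.81 with PBS. Its groups were ordered without overlap, anti-DCIR2-BDC highest and PBS lowest, although the anti-DCIR2-BDC array 1 and the anti-DEC205-BDC array 2 nearly met. It rose by 2.09 (adjusted p = 0.000721) with anti-DCIR2-BDC and by 1.31 (adjusted p = 0.0205) with anti-DEC205-BDC, and the difference of 0.77 between the antibodies did not pass (adjusted p = 0.418). The call with anti-DEC205-BDC ended without array 2 of that group (0.99, adjusted p = 0.129), PBS array 1 (1.41, 0.0562) or PBS array 2 (1.22, 0.0863).

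Snora20, hosted by Tcp1, a gene for a subunit of a cytosolic chaperonin, had 6.99 and 8.12 with anti-DCIR2-BDC, 8.20 and 7.08 with anti-DEC205-BDC, and 5.47 and 5.34 with PBS. Here the arrays of each antibody group differed by more than 1, yet all stood well above the narrow PBS pair. The rise was 2.15 ± 0.39 (SE) with anti-DCIR2-BDC (limma adjusted p = 0.00328) and 2.23 ± 0.39 with anti-DEC205-BDC (adjusted p = 0.00665).

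Among the C/D genes the largest rises were those of the pair in Rpl23a, a ribosomal protein gene. Snord42b had 6.77 and 7.40 with anti-DCIR2-BDC, 6.24 and 6.76 with anti-DEC205-BDC, and 4.63 and 5.05 with PBS. Snord42a had 7.74 and 7.69 with anti-DCIR2-BDC, 7.98 and 7.51 with anti-DEC205-BDC, and 5.25 and 6.38 with PBS. Neither gene had an antibody array at or below a PBS array. The changes with anti-DCIR2-BDC were 2.25 for Snord42b and 1.89 for Snord42a (limma adjusted p = 0.000234 and 0.0022), and those with anti-DEC205-BDC 1.66 and 1.93 (adjusted p = 0.00362 and 0.00526).

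Snord52, in the noncoding gene 1110038B12Rik, had 5.10 and 6.14 with anti-DCIR2-BDC, 5.64 and 5.58 with anti-DEC205-BDC, and 3.93 and 4.2 with PBS, which put the antibody groups on 1 level and PBS well below. The rises were 1.56 and 1.55 (limma adjusted p = 0.00254 and 0.00672). Its PBS values were as low as the mean levels of NK cell and neutrophil markers (3.87 to 4.49), and detection above background was not analysed here, so these changes are differences between deposited values and their true size is uncertain. Snord95 had 8.12 and 8.48 with anti-DCIR2-BDC, 7.82 and 8.46 with anti-DEC205-BDC, and 6.63 and 7.21 with PBS, rises of 1.38 and 1.22 (adjusted p = 0.00526 and 0.0205). Snord49a had 6.89 and 7.27 with anti-DCIR2-BDC, 6.79 and 7.38 with anti-DEC205-BDC, and 5.68 and 6.11 with PBS, rises of 1.19 in either comparison (adjusted p = 0.00731 and 0.0152). Both genes kept their groups apart, but single arrays ended calls. The anti-DCIR2-BDC call ended without array 2 of that group for Snord95 (1.20, adjusted p = 0.071) and Snord49a (1.0, 0.0878), and without PBS array 1 for Snord49a (0.98, 0.0572). The anti-DEC205-BDC call ended without array 2 of that group for Snord95 (0.90, adjusted p = 0.131) and Snord49a (0.89, 0.0976), and likewise without PBS array 1 (0.92, 0.125, and 0.97, 0.1).

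The other 7 genes that rose with anti-DCIR2-BDC changed less. They were Snora69 (1.14) and Snora75 (1.14), Snora21 (0.96), Snord47 (0.85), Snora3 (0.79), Snord96a (0.68) and Snord58b (0.60), with limma adjusted p between 0.0177 and 0.0487. In anti-DEC205-BDC cells the changes of the same genes were 0.58, 0.82, 0.89, 0.50, 0.55, 0.45 and 0.53, and none passed (adjusted p between 0.0585 and 0.413). The PBS values of Snord58b, 4.38 and 4.34, were as low as those NK cell and neutrophil markers, so the size of its rise is uncertain. Each of the 7 had both anti-DCIR2-BDC arrays above both PBS arrays, as had 23.4% of all genes. This rests on the same arrays as the calls and adds no support to them. Each of the 7 genes also lost its call when 1 or more single arrays were left out, above all array 2 of anti-DCIR2-BDC. Without it the changes were 0.45 for Snora69, 0.81 for Snora75, 0.60 for Snora21, 0.65 for Snord47, 0.67 for Snora3, 0.75 for Snord96a and 0.52 for Snord58b. Without PBS array 1, Snora75 changed by 0.74 and Snora21 by 0.71. Without PBS array 2, Snord47 changed by 0.57 and Snora3 by 0.53, again short of the threshold. Snora3 (0.91, adjusted p = 0.0749) and Snord47 (1.05, 0.0539) also ended without array 1 of anti-DCIR2-BDC. The calls of Snord96a (0.61 to 0.75) and Snord58b (0.52 to 0.69) ended without any 1 of the 4 arrays compared. Snora69 ended without PBS array 1 (1.17, adjusted p = 0.125) or PBS array 2 (1.11, 0.143), and reached 1.83 without array 1 of anti-DCIR2-BDC (adjusted p = 0.00299), its arrays in that group having read 6.02 and 7.39. Quantile normalization between the arrays ended the calls of Snora3 (0.64, adjusted p = 0.0793), Snora75 (1.0, 0.0573), Snord47 (0.76, 0.0596) and Snord96a (0.68, 0.0501).

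Over all 51 genes, 8 rose with anti-DCIR2-BDC and 1 fell when array 2 of that group was left out, against 17 and 4 with all arrays. Testing every probe set in place of 1 per gene ended 14 of the 21 calls with anti-DCIR2-BDC and 10 of the 12 with anti-DEC205-BDC. Of the 21 calls with anti-DCIR2-BDC, 6 stayed under every one of the 17 other settings tried: Snora73b, Snora74a, Snora33, Snord42a, Snord42b and, in the 16 of them that tested it, Snord52. Of the 12 with anti-DEC205-BDC, 2 did: Snora73b and Snora74a.

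The falls were fewer, and the deepest rested on scattered arrays. Snord61, a C/D gene within Rbmx, which encodes a nuclear RNA-binding protein, had 3.53 and 4.69 with anti-DCIR2-BDC, 3.32 and 3.63 with anti-DEC205-BDC, and 9.02 and 5.71 with PBS. The PBS arrays were 3.32 apart, the widest gap among the 51, yet the lower of them stood above all antibody arrays. The antibody arrays were themselves at or near the levels of those NK cell and neutrophil markers, so the size of the fall is likewise uncertain. It fell by 3.26 (limma adjusted p = 0.0151) with anti-DCIR2-BDC and changed by -3.89 (adjusted p = 0.0127) with anti-DEC205-BDC. Without PBS array 1 the changes were -1.60 and -2.23, and without PBS array 2 the first was -4.92. The anti-DCIR2-BDC call ended without either array of that group (-2.68, adjusted p = 0.153, and -3.84, 0.0511), and both calls ended with a robust variance trend (adjusted p = 0.194 and 0.19).

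Snord35b, a C/D gene, had 6.95 and 7.91 with anti-DCIR2-BDC, 7.25 and 8.27 with anti-DEC205-BDC, and 9.21 and 10.35 with PBS. The arrays of each group were about 1 apart and the PBS pair did not overlap with the others. It fell by 2.35 ± 0.43 (SE) with anti-DCIR2-BDC (limma adjusted p = 0.00349) and changed by -2.02 ± 0.43 with anti-DEC205-BDC (adjusted p = 0.0164). The first call ended without array 1 of anti-DCIR2-BDC (-1.87, adjusted p = 0.0516). The other ended without array 1 of anti-DEC205-BDC (-1.51, 0.0905) or PBS array 2 (-1.45, 0.0959). Its relative Snord35a, in Rpl13a, changed the other way without passing, by 0.92 (adjusted p = 0.066) and 0.33 (adjusted p = 0.626).

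Snora30 and Snord104 fell in anti-DCIR2-BDC cells. Snora30 had 6.86 and 6.68 with anti-DCIR2-BDC, 7.02 and 7.22 with anti-DEC205-BDC, and 7.54 and 7.49 with PBS, in that order without overlap. It fell by 0.75 (limma adjusted p = 0.0178) with anti-DCIR2-BDC, while the change of -0.40 with anti-DEC205-BDC did not pass (adjusted p = 0.265). Snord104 had 9.65 and 9.20 with anti-DCIR2-BDC, 10.50 and 10.14 with anti-DEC205-BDC, and 10.10 and 10.14 with PBS. Its anti-DCIR2-BDC arrays lay below the other 4, and it fell by 0.70 (adjusted p = 0.0251), against a change of 0.20 with anti-DEC205-BDC that did not pass (adjusted p = 0.633). Between the antibodies Snord104 differed by -0.90 (anti-DCIR2-BDC minus anti-DEC205-BDC, adjusted p = 0.18). The call of Snora30 ended when any single anti-DCIR2-BDC or PBS array was left out (changes between -0.84 and -0.66, adjusted p between 0.056 and 0.136). That of Snord104 ended without array 2 of anti-DCIR2-BDC (-0.47, 0.193), PBS array 1 (-0.72, 0.0804) or PBS array 2 (-0.68, 0.0956), and when each array was centred on its median (-0.59, 0.0574). Below these came Snora2b, at -0.31 with anti-DCIR2-BDC, which did not pass (adjusted p = 0.139).

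Apart from Snord104, 5 genes had an unadjusted p under 0.05 between the antibodies, and none passed after adjustment. Snora33 was described above. Snord57 had 8.89 and 8.72 with anti-DCIR2-BDC and 7.70 and 8.48 with anti-DEC205-BDC, a difference of 0.72 (limma adjusted p = 0.383). Snord42b differed by 0.59 (adjusted p = 0.479), and Snord33, at 8.14 and 7.97 with anti-DCIR2-BDC against 7.67 and 7.55 with anti-DEC205-BDC, by 0.44 (adjusted p = 0.454). Snord15a, with 5.04 and 5.34 with anti-DCIR2-BDC and 6.49 and 5.56 with anti-DEC205-BDC, differed by -0.83 (anti-DCIR2-BDC minus anti-DEC205-BDC, adjusted p = 0.33). The 95% intervals of these differences lay between 0.01 and 1.43 for Snora33, Snord57, Snord42b and Snord33, the 4 genes higher with anti-DCIR2-BDC, and from -1.41 to -0.25 for Snord15a.

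No call was made in any comparison for 30 of the 51 genes. Snora62 had the largest change among them, 1.48 with anti-DCIR2-BDC (limma adjusted p = 0.11). It had 6.76 and 8.56 with anti-DCIR2-BDC, 6.20 and 7.64 with anti-DEC205-BDC, and 5.76 and 6.60 with PBS, and the arrays within the antibody groups lay farther apart than the group means of anti-DEC205-BDC and PBS. Among the RNAs with known parts in precursor processing, Snord118, the U8 RNA needed in frogs for the large-subunit RNAs, changed by -0.09 and 0.31 (adjusted p = 0.932 and 0.768). Snord118 is also the only member outside any other RefSeq gene. Snord22, the U22 RNA needed in frogs for the small-subunit RNA and hosted by the noncoding Snhg1, changed by 0.58 and 0.32 (adjusted p = 0.156 and 0.548), and Snord14e by -0.69 and -0.13 (adjusted p = 0.226 and 0.893). A p that misses the threshold does not show that these genes were alike in the groups.

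The spread between the arrays of a group was wide for these genes. The median gap between the 2 arrays was 0.40 with anti-DCIR2-BDC, 0.57 with anti-DEC205-BDC and 0.49 with PBS, against 0.16, 0.17 and 0.17 over all genes. Gaps of more than 1, a 2-fold difference between duplicates, occurred in 8, 7 and 5 of the 51 genes in the same order of groups, or 15.7%, 13.7% and 9.8%, against 0.371%, 0.672% and 0.762% of all genes. The median within-group SD, pooled over the groups, was 0.42 for the 51 genes, 0.45 for Snora and 0.41 for Snord. It was 0.16 over all genes and 0.13 for the 291 microRNA genes measured, which are also short but whose median level of 4.34 is lower. The 3 Scarna genes, guide RNAs of the Cajal body, had 0.44.

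The direction of the gaps differed between the groups, and with anti-DCIR2-BDC most members were higher on array 2. Array 2 was the higher in 36 of 51 genes (70.6%) with anti-DCIR2-BDC, in 30 (58.8%) with anti-DEC205-BDC and in 23 (45.1%) with PBS. Over all genes the shares were 48.2%, 55.9% and 49.5%. Among H/ACA genes it was the higher in 16, 11 and 6 of 20. The widest gaps per group were those of Snora62 with anti-DCIR2-BDC (1.80), Snord37 with anti-DEC205-BDC (2.27) and Snord61 with PBS (3.32). Snord37, within the elongation factor gene Eef2, had 6.67 and 7.09 with anti-DCIR2-BDC, 4.98 and 7.25 with anti-DEC205-BDC, and 7.50 and 6.95 with PBS, so a single array stood more than 1.5 below the other 5. It passed in no comparison with all arrays. Without array 2 of anti-DEC205-BDC, which left the low array alone, it passed at -2.24 for anti-DEC205-BDC against PBS (limma adjusted p = 0.00458) and at 1.90 for anti-DCIR2-BDC against anti-DEC205-BDC (adjusted p = 0.0433). By pooled SD the most variable were Snord61 (1.44), Snora62 (1.0), Snord37 (0.97), Snora16a (0.74) and Snord35b (0.74). The steadiest were Snord55 (0.10), Snora2b (0.09) and Snord33 (0.09), below the median of all genes.

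**Figure D3:**
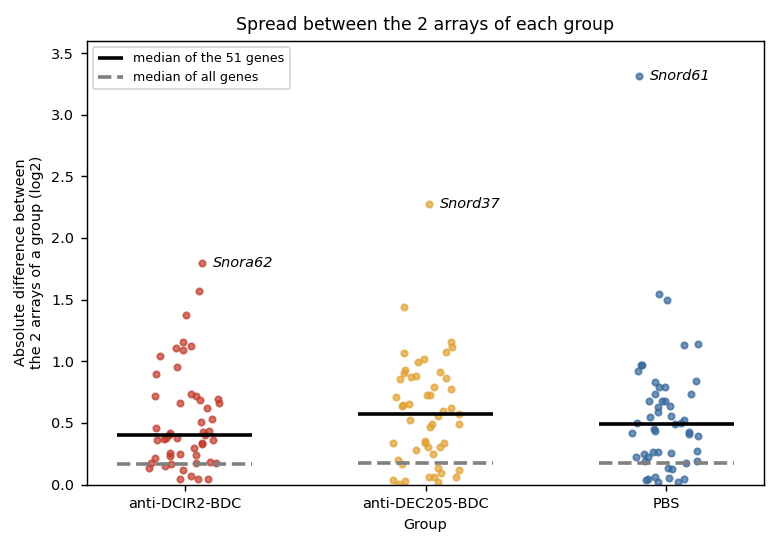
Absolute log2 difference between the 2 arrays of a group (vertical axis) for each of the 51 genes (points) in anti-DCIR2-BDC, anti-DEC205-BDC and PBS cells, with the widest gap of each group named. Black lines are the medians of the 51 genes (0.40, 0.57 and 0.49) and dashed grey lines those of all genes (0.16, 0.17 and 0.17).

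Host genes were set beside the small RNAs they contain. The host was matched by span alone, since strand was not in the table used. Of the 51 genes, 37 lay in protein-coding genes and 13 in long noncoding ones, and 21 lay in 16 ribosomal protein genes. For 27 members the host, 23 genes in all, had its own probe set on the array. Across these 27 pairs the changes of member and host had a Pearson r of 0.04 and a Spearman rho of -0.10 with anti-DCIR2-BDC, and 0.15 and 0.09 with anti-DEC205-BDC. These describe pairs that share arrays, and some share a host. Member and host changed in the same direction in 14 of 27 pairs with anti-DCIR2-BDC and in 16 with anti-DEC205-BDC. The member changed more in size than its host in 19 of 27 pairs with anti-DCIR2-BDC and in 20 with anti-DEC205-BDC. Members varied more between duplicates, with a median pooled SD of 0.42 against 0.16 over all genes. Such spread can by itself enlarge changes and weaken correlations, and its part here was not tested.

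Of the 8 members that rose with anti-DCIR2-BDC and had a measured host, 2 had a host that rose. Among all 23 measured hosts, 8 rose and 1 fell with anti-DCIR2-BDC, so a share of 2 in 8 does not set these members apart. Tcp1, the host of Snora20, had 9.58 and 9.74 with anti-DCIR2-BDC, 9.0 and 8.94 with anti-DEC205-BDC, and 7.85 and 7.74 with PBS. It rose by 1.86 (limma adjusted p = 7.96e-05) and 1.17 (adjusted p = 0.00278). Ncl, which encodes the nucleolar protein nucleolin and hosts Snora75, rose by 1.33 (adjusted p = 8.95e-05) with anti-DCIR2-BDC. The other 6 were Snora33 in Rps12 (host change -0.03), Snora21 in Rpl23 (-0.19), Snora3 in Rpl27a (-0.06), Snord42a and Snord42b in Rpl23a (0.13) and Snord47 in Gas5 (-0.03), and none of these hosts passed. Rps12 had its arrays close together, and its change with anti-DEC205-BDC was 0.09. These hosts were bright, at 12.31 to 12.45 for Rps12 and 12.31 to 12.54 for Rpl23a, where the array maxima were 13.65 to 13.86. Whether probe sets at such levels show changes in full was not tested. The 10 measured ribosomal protein hosts changed by between -0.19 and 0.32 with anti-DCIR2-BDC, with 1 call, Rpl4, the host of Snord16a (0.32, adjusted p = 0.0349), and by between -0.21 and 0.43 with anti-DEC205-BDC, with none. Of the 21 members in ribosomal protein genes, 7 rose and 1 fell with anti-DCIR2-BDC, with a median of 0.60, and 3 rose and 1 fell with anti-DEC205-BDC, with a median of 0.53. Over all 51 members 17 rose and 4 fell and then 10 and 2, and over all genes the shares were 10.1% higher and 7.82% lower and then 5.32% and 3.53%.

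Rbmx, the host of Snord61, changed by 0.33 and -0.01 (limma adjusted p = 0.388 and 0.987) where Snord61 fell. Other hosts rose while their small RNA did not pass. Wdr43, a ribosome biogenesis gene, rose by 1.97 with anti-DCIR2-BDC (adjusted p = 6.34e-05), against 0.64 for its Snord53 (adjusted p = 0.225). Ipo7, a nuclear import receptor gene, rose by 1.92 (adjusted p = 0.000118), against -0.33 for Snora23 (adjusted p = 0.564). Nop56, itself a core protein of C/D particles, rose by 1.54 (adjusted p = 9.39e-05), against 0.44 for Snord57 (adjusted p = 0.305).

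**Figure D4:**
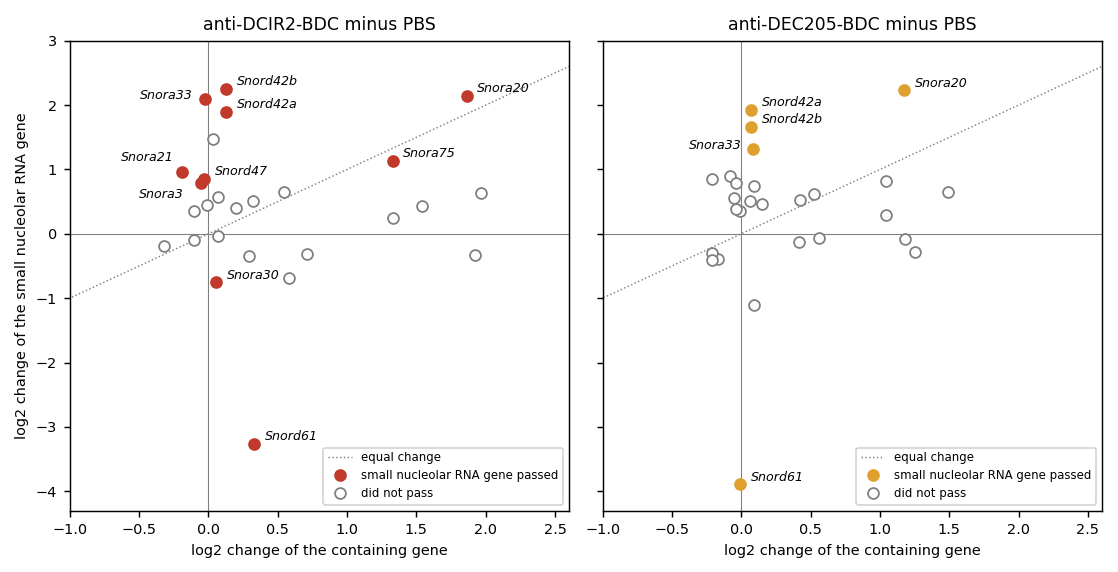
Log2 change against PBS of 27 small nucleolar RNA genes (vertical axis) and of the gene that contains each (horizontal axis), with anti-DCIR2-BDC on the left and anti-DEC205-BDC on the right; filled, named points are small RNA genes that passed and the dotted line marks equal change. Snora33, Snord42a and Snord42b lie high above hosts near 0, Snora20 near the line, and Snord61 far below a host near 0.

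Small RNAs of 1 host could be set side by side in 10 host genes, each with 2 measured members. These pairs were singled out after their values had been seen, and the difference within a pair was not tested. With anti-DCIR2-BDC, both members passed in 3 hosts: Snora73a and Snora73b in Snhg3, Snord42a and Snord42b in Rpl23a, and Snord95 (1.38) and Snord96a (0.68) in Rack1, which encodes a scaffold protein of the ribosome. In 2 hosts 1 member passed. In 2410006H16Rik, Snord49a rose by 1.19 while Snord49b had 9.78 and 9.55 with anti-DCIR2-BDC, 9.60 and 9.54 with anti-DEC205-BDC, and 10.23 and 9.26 with PBS, a change of -0.08 (limma adjusted p = 0.895). In Ncl, Snora75 rose by 1.14 and Snord82 changed by 0.24 (adjusted p = 0.557). In the other 5 hosts neither member passed.

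The genes that build and carry the small nucleolar RNA particles all or mostly rose. All 8 core protein genes were higher in either comparison with PBS, with median changes of 1.90 with anti-DCIR2-BDC and 1.45 with anti-DEC205-BDC, against -0.05 and -0.03 over all genes. In the C/D particle these are Fbl, the methyltransferase (1.99 and 1.62), the scaffold proteins Nop56 (1.54 and 1.25) and Nop58 (1.95 and 1.47), and Snu13, which binds the RNA (1.84 and 1.32). In the H/ACA particle they are Dkc1, the pseudouridine synthase (2.40 and 1.83), and its partners Nhp2 (2.52 and 2.18), Nop10 (1.57 and 1.44) and Gar1 (1.70 and 1.38). The values in brackets are log2 changes with anti-DCIR2-BDC and then anti-DEC205-BDC against PBS, and every limma adjusted p was at most 0.00157. Dkc1 had 9.27 and 9.21 with anti-DCIR2-BDC, 8.61 and 8.72 with anti-DEC205-BDC, and 6.79 and 6.88 with PBS, a far narrower spread between duplicates than most of the small RNAs showed.

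Of 19 genes for particle assembly, processing and trafficking, 17 rose with anti-DCIR2-BDC and 12 with anti-DEC205-BDC, and none fell, with medians of 1.22 and 0.82. Over all genes 10.1% were higher and 7.82% lower with anti-DCIR2-BDC, and 5.32% and 3.53% with anti-DEC205-BDC. The largest rises were those of Ruvbl1, an ATPase of the assembly complex (2.91 and 2.20), Nolc1, a chaperone of the particles (2.59 and 1.99), Dis3, a nuclease of the exosome (2.09 and 1.74), and Znhit6, a C/D assembly factor (2.03 and 1.32). The exonuclease genes Xrn2 (0.34 and 0.19) and Parn (0.34 and 0.19) did not pass. The anti-DEC205-BDC count was 7 without array 2 of that group. Of 17 noncoding host genes listed, 6 were measured and 1, Dancr, rose (1.65 with adjusted p = 0.000806, and 1.13 with adjusted p = 0.0149), while Gas5 changed by -0.03 and 0.06. In none of these lists did a gene pass between the antibodies, where 4 of 8, 10 of 19 and 0 of 6 had an unadjusted p under 0.05, against 10.2% of all genes.

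The defining genes of the labelled cell type were bright. The 7 CD4 T cell markers, Cd3d, Cd3e, Cd3g, Cd4, Cd5, Cd28 and Thy1, lay at the 98.5 to 99.7 percentiles of level. Their mean level was 10.21 to 10.22 with anti-DCIR2-BDC, 10.61 to 10.73 with anti-DEC205-BDC and 10.93 to 11.00 with PBS. With anti-DCIR2-BDC 5 of 7 fell, against 7.82% of all genes, and with anti-DEC205-BDC 0 of 7 passed, where 3.53% of all genes fell. Between the antibodies 0 of 7 passed, and 5 had an unadjusted p under 0.05, against 10.2% of all genes. Markers of other cells were lower, with mean levels of each list, over the 6 arrays, of 5.42 to 6.03 for the 2 CD8 T cell genes, 4.91 to 5.23 for 4 of 5 B cell genes, and 5.36 to 5.54 for the 6 dendritic cell and macrophage genes. They were 3.87 to 4.24 for the 3 NK cell genes, 4.27 to 4.49 for the 3 neutrophil genes and 4.88 to 5.58 for 1 of 3 erythroid genes. Single markers lay above the median of all genes, up to the 68.2 percentile for Cd68, a macrophage gene, and the 65.3 percentile for Cd8b1, a CD8 T cell gene. Of all these, 1 passed in a comparison, the NK cell gene Klrk1, which changed by -0.52 with anti-DCIR2-BDC (limma adjusted p = 0.0355). The part of these markers in the changes of the small nucleolar RNA genes was not tested. Over all probe sets the array medians were 5.43 to 5.56, and arrays of a group correlated at 0.974 to 0.982, against 0.940 to 0.980 between groups.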

How the data were processed

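RNA from sorted BDC2.5 CD4 T cells was extracted with a PicoPure kit, amplified with a NuGen Ovation pico kit and labelled with biotin, per the labels' protocols. The authors deposited log2 expression values per probe set, made by RMA in the Partek software, per the labels and the submitters' processing notes. No source used here states the software version or its settings, and scan data were not analysed here. RMA equalises the arrays' distributions, and a shift common to every gene would not show. The 6 deposited columns hold 35556 probe sets with values of 2.15 to 13.86 and 0 missing, and no 2 arrays shared more than 22 identical values.

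The platform annotation gave 21789 probe sets 1 symbol, 1621 several and 12146 none. Per gene, the single-symbol probe set with the highest mean was used (19938 genes, no filter on dim ones). The test was limma 3.58.1 in R 4.3.3: a linear model with a mean for each group, fitted to the 6 arrays together, a variance trend and Benjamini-Hochberg adjustment over all genes, two-sided at 0.05. The fit was tested on simulated data. Host genes and promoters came from RefSeq (GRCm38.p6). All 51 members were found there, and strand was not used although it had been planned. A planned search for the C box in the small RNA genes was not run, as the sequences were not analysed here.

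Named members were those with the 10 largest called changes per direction (filled to 5 by unadjusted p), the 5 largest and 3 smallest pooled SDs, the 3 highest and lowest levels, and Snord61, Snord35b and Snora73b. Other members named were chosen after their values were seen. The members and lists were chosen with earlier results of these data known. Alternatives covered normalization, probe set choice, dim genes, variance model, array weights, the arrays in the fit, a replicate block and leaving out each array. A 2 against 2 exact permutation test cannot go below p = 0.333, so none was used. The labels do not say that arrays of the same number were paired, so the numbers were not taken as pairs. Some host genes are not reported here.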

Additional observations from a re-analysis of the deposited data

Results flagged for a closer look

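Small nucleolar RNA symbols that share their probe sets with other genes entered no comparison above. Their 41 probe sets were tested here in limma, with p-values adjusted over all 35556 probe sets. Those that passed against PBS are named below, and the rest of the 41 passed in no comparison. The share of all 35556 probe sets that passed is not given here. The 2 probe sets of Snora19 with Mir3084-1 and Mir3084-2 held the same values, 6.23 and 6.73 with anti-DCIR2-BDC, 4.88 and 5.24 with anti-DEC205-BDC, and 4.34 and 3.64 with PBS. Each rose by 2.49 with anti-DCIR2-BDC against PBS (adjusted p = 0.00919), and the change of 1.07 with anti-DEC205-BDC did not pass (adjusted p = 0.147). The probe set of Snord68 and its host Rpl13 had 6.80 and 7.30 with anti-DCIR2-BDC, 5.84 and 7.02 with anti-DEC205-BDC, and 3.96 and 5.07 with PBS. It rose by 2.54 with anti-DCIR2-BDC (adjusted p = 0.0364), and its 1.91 with anti-DEC205-BDC did not pass (adjusted p = 0.137). That of Snord32a and Rpl13a fell by 1.23 with anti-DCIR2-BDC (adjusted p = 0.0453), and its change of -1.15 with anti-DEC205-BDC did not pass (adjusted p = 0.0999). In each case the signal cannot be assigned to 1 gene. Both PBS values for Snora19 and that of PBS array 1 for Snord68 were at or below the mean levels of NK cell and neutrophil markers. The true size of these rises is therefore uncertain.

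In 2 genes both arrays of one antibody lay above both PBS arrays and both arrays of the other antibody below them. This was looked for among the 51 members only, so the count cannot be set against all genes. Separation alone was common, with anti-DCIR2-BDC wholly above anti-DEC205-BDC in 19.3% of all genes and wholly below in 20.9%. Snord33 was above PBS with anti-DCIR2-BDC and below it with anti-DEC205-BDC, and the antibodies differed by 0.44 (limma adjusted p = 0.454). Snord104 was below PBS with anti-DCIR2-BDC and above it with anti-DEC205-BDC by a margin of less than 0.01 on the nearest array, and the antibodies differed by -0.90 (anti-DCIR2-BDC minus anti-DEC205-BDC, adjusted p = 0.18). Neither difference passed.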

How the results depend on the processing

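Of 162 recomputed counts and medians, 146 stayed within the tolerance used, 12 counts shrank, 1 grew and 3 medians moved. No call changed its direction, but the median difference between the antibodies changed its sign without array 2 of anti-DCIR2-BDC. Testing every probe set left 7 rises and 0 falls among the members with anti-DCIR2-BDC and 2 and 0 with anti-DEC205-BDC, with 1331 and 892 and then 341 and 108 calls over all genes, against 2008 and 1560 and then 1060 and 703. The dimmest 50% of genes left out, or a robust trend, each left 1 fall with anti-DEC205-BDC. In the first case Snord61 was itself among the genes left out and was not tested, and in the second it was tested and did not pass. Leaving out single arrays gave 8 to 19 rises and 1 to 4 falls with anti-DCIR2-BDC, 8 to 11 and 1 to 3 with anti-DEC205-BDC, and 0 to 1 and 0 between the antibodies. The medians ran from 0.364 to 0.685, from 0.281 to 0.526 and from -0.108 to 0.263 in that order, and the median pooled SD from 0.376 to 0.435. Where 1 array was left in a group, it was assumed to vary like the others. Calls over all genes fell at the lowest to 1179 rises (without array 2) and 800 falls (without array 1) with anti-DCIR2-BDC, and to 601 rises (without array 2) and 359 falls (without array 1) with anti-DEC205-BDC, and between the antibodies they ranged from 0 to 12 rises and 0 to 15 falls. The causes were not tested.

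With the replicate block, which pairs arrays by a shared number only, 21 members rose and 5 fell with anti-DCIR2-BDC, 14 and 2 with anti-DEC205-BDC, where 8 H/ACA genes rose in place of 5, and 0 between the antibodies. Calls over all genes grew too, to 2183 rises and 1702 falls with anti-DCIR2-BDC, from 2008 and 1560. With anti-DEC205-BDC they grew to 1222 and 847, from 1060 and 703. Deviations of same-numbered arrays from their group means correlated by 0.0714 to 0.145 over all genes and by 0.135 to 0.317 over the 51 members. Precision is limited by 2 arrays a group, and detection above background was not analysed here.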
